A study of Mus musculus with 4 samples.

Results

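The genes examined, 10 in number, encode non-collagen proteins of the cartilage matrix: Acan, Hapln1, Comp, Matn1, Matn3, Matn4, Prg4, Cilp, Ucma and Chad. They were picked by gene symbol from a list of such proteins, drawn up with earlier results of these data known, and each was found once among the 55450 genes of the read table with reads in each of the 4 libraries. The libraries were made from cultured articular chondrocytes of the femoral head of mice at 3 weeks of age on a C57BL/6 or, for the mimic library, C57BL6/J background. One library came from cells labelled wild type (WT). Another came from mice with flox/flox miR-23a/b clusters and Col2a1-cre (Cart-miR-23clus KO), in which Cre under the Col2a1 promoter removes both miR-23-27-24 clusters from cells that have made type II collagen. The other two came from miR-26a -/- mice, without (miR-26a KO) and with transfection of a miR-26a mimic (miR-26a KO + mimic). Whether the first of these received the control siRNA that the protocol names is not in the labels. The study calls the control cells of the sequencing both wild type, like the label, and Control, which its methods define as floxed mice, so it is not certain whether the WT cells carried the floxed alleles. All cells were released with collagenase, grown in medium with 10% serum and lysed after culture, and how many animals each library pools is not stated. Each condition has 1 library, so differences were not checked against replicates and no p-values are given. Mature miRNAs are not captured by oligo-dT priming, so the deletions themselves could not be checked in these reads.

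Cartilage owes its resistance to pressure to aggrecan, a large proteoglycan whose sulfated sugar chains hold water, and which is fixed to strands of hyaluronan by a link protein, the product of Hapln1. Matrilins, COMP and chondroadherin tie collagen fibrils to this gel and to cells, whereas lubricin, the product of Prg4, coats the surface of the joint. MicroRNAs lower the stability and translation of mRNAs whose 3′ untranslated regions (UTRs) pair with the seed, bases 2 to 8 of the miRNA. The study concerns the role of the miR-23a/b clusters in osteoarthritis, the breakdown of joint cartilage with age or injury, and its comparisons do not use the miR-26a libraries.

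The mature miRNAs lost in the knockouts are shown here, from the RefSeq table, with the seed in capitals because the search in the UTRs rests on it. The sense strand of the transfected mimic was identical to miR-26a-5p, and miR-23b-3p is named only.
miR-23a-3p: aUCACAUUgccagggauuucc
miR-27a-3p: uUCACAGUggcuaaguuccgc
miR-27b-3p: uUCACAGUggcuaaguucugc
miR-24-3p: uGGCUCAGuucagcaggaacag
miR-26a-5p: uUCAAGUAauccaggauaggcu
miR-27a-3p and miR-27b-3p share 1 seed, and the seeds of the 4 families differ.

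In the annotated 3′ UTRs of the 10 genes, on the mRNA strand only, the 7-base matches were AATGTGA for miR-23, ACTGTGA for miR-27, CTGAGCC for miR-24 and TACTTGA for miR-26a. Prg4, Hapln1, Matn3 and Acan held at least 1 of them, and Comp, Matn1, Matn4, Cilp, Ucma and Chad held none. A match for miR-23 was present in 2 of the 10 genes, for miR-27 in 2, for miR-24 in 1 and for miR-26a in 2. Over 20290 mouse 3′ UTRs the shares with a match were 14.3%, 15.1%, 15.2% and 9.29% in the same order. Matn3 held 4 matches, to miR-23, miR-26a and, at 2 places, miR-27, in a UTR of 1453 bases. Prg4, Hapln1 and Matn3 each had 1 match followed by an A, which extends it to 8 bases. These longer matches are shown in 26 bases of the mRNA strand of GRCm38, with the 7-base match in capitals.
Prg4, miR-23, chr1:150449574-150449599, minus strand: gagttattttgaagAATGTGAaaata
Hapln1, miR-26a, chr13:89610058-89610083, plus strand: ttggaggaagatcaTACTTGAacaat
Matn3, miR-27, chr12:8970780-8970805, plus strand: gtctcatagctatgACTGTGAaatca
A match is a description of letters in a UTR, and binding was not measured.

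Of the reads counted on genes, 1505805 in WT, 1336496 in Cart-miR-23clus KO, 1369924 in the miR-26a KO and 1449246 with the mimic, the 10 genes together held 0.701%, 0.541%, 0.443% and 0.418%. The reads come from the 3′ ends of mRNAs, so the depth behind a gene is its number of reads, and a count of 0 would have allowed a level of up to 2.24 CPM (reads on a gene scaled to a common library total). TPM divides the reads by gene length and scales each library to a common sum. On this scale the order in WT was Ucma, Matn1, Acan, Comp, Hapln1, Matn4, Prg4, Matn3, Chad and Cilp, from 3631 to 0.691 TPM. Without the division by length, which does not suit reads from 3′ ends, Acan was first, and only 4 of the 10 genes kept their place. Fold differences below are ratios of TPM with exact 95% counting intervals on reads. Ratios above 2 or below 0.5 were counted where the mean of the 2 libraries was 20 reads or more, which Cilp did not reach in any comparison.

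**Figure D1:**
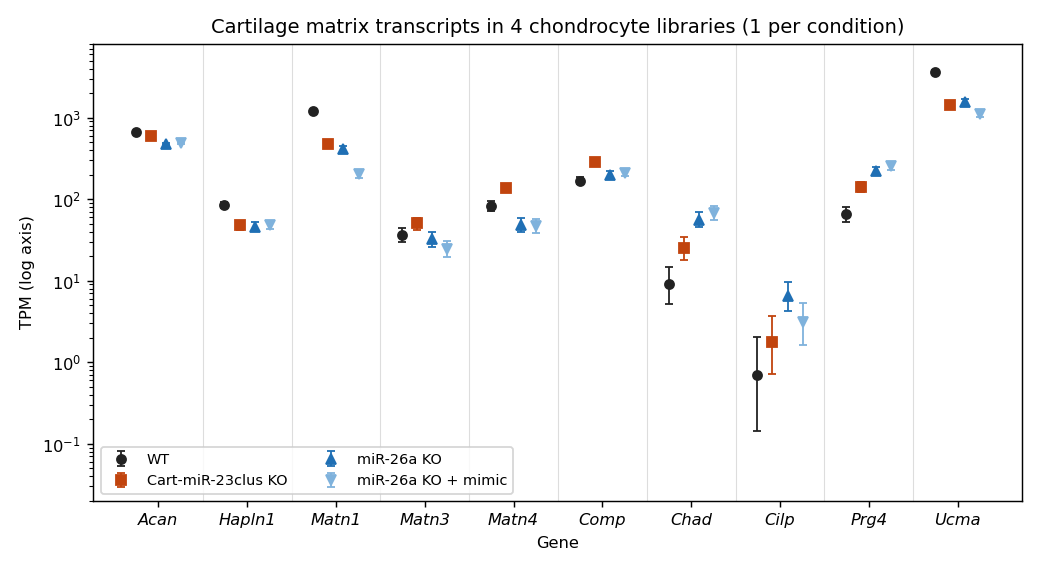
TPM on a log axis of each gene in the WT, Cart-miR-23clus KO, plain miR-26a KO and mimic libraries (1 library each), with exact 95% Poisson intervals on reads as bars. Matn1 and Ucma stand highest in WT, at 1193 and 3631 TPM, while Prg4 and Chad stand lowest there, at 65.3 and 9.12 TPM.

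The aggregate genes come first. Acan encodes aggrecan and lies on chromosome 7 of GRCm38 from 79053483 to 79115099 (ENSMUSG00000030607). It had 5077 reads in WT, 4132 in Cart-miR-23clus KO, 3302 in the miR-26a KO and 3665 with the mimic, or 660.7, 592, 472 and 489 TPM. WT was highest and the miR-26a -/- libraries were lowest, with counting intervals that overlap between those 2 alone. Relative to WT it stood at 0.896 (95% interval 0.880 to 0.956) in Cart-miR-23clus KO and 0.714 (0.684 to 0.747) in miR-26a KO, and the mimic library stood at 1.04 (1.001 to 1.10) times miR-26a KO. That last interval is on the scale of library totals, where the ratio was 1.05, so a difference is not clear on the TPM scale. No Acan ratio was past 2-fold in any of these comparisons, and Cart-miR-23clus KO, lower than WT, was higher than the miR-26a KO, at 1.26 (1.23 to 1.34). By PCR on replicate cultures, the study found Acan not significantly different in Cart-miR-23clus KO from floxed controls. The single match of Acan, to miR-24, lies near the start of a 3′ UTR of 823 bases.

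Hapln1, the gene of the link protein (ENSMUSG00000021613, chromosome 13, 89539796 to 89611652), stood closest to the 2-fold limit among the members that did not cross it in the comparison of Cart-miR-23clus KO with WT. It had 508 reads in WT against 259, 249 and 282 in Cart-miR-23clus KO, in the miR-26a KO and with the mimic, or 85.1, 47.8, 45.8 and 48.5 TPM. WT was alone above the other 3 libraries, whose intervals overlapped. Its TPM ratio to WT was 0.561 (0.493 to 0.669) in Cart-miR-23clus KO and 0.538 (0.461 to 0.628) in miR-26a KO, and the mimic library was at 1.06 (0.900 to 1.28) times miR-26a KO. Per 100 reads of Acan, Hapln1 had 10.0 reads in WT, 6.27 in Cart-miR-23clus KO, 7.54 in the miR-26a KO and 7.69 with the mimic, so the link protein transcript was lower relative to that of aggrecan in each of the 3 knockout libraries. Hapln1 holds a miR-27 and a miR-26a match, whose part in these levels was not tested.

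Matn1 and Ucma were the members furthest below WT. Matn1 encodes matrilin-1, a matrix protein of cartilage that forms filaments with and without collagen (ENSMUSG00000040533, chromosome 4, 130944385 to 130955475). It had 2495 reads in WT, 911 in Cart-miR-23clus KO, 795 in the miR-26a KO and 414 with the mimic, or 1193, 479.8, 417.6 and 203 TPM. The 4 intervals did not overlap, and the highest level was 5.87 times the lowest. The ratio to WT was 0.402 (0.381 to 0.444) in Cart-miR-23clus KO, where 87 of 7531 genes had a lower ratio, and 0.350 (0.323 to 0.380) in miR-26a KO, where 37 of 7615 genes did. In the mimic library Matn1 was at 0.487 (0.436 to 0.555) times miR-26a KO, and among the 2474 genes with a mean of at least 100 reads in that pair no other gene had a ratio below 0.5. The mimic library thus lay further from WT than the miR-26a KO did.

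Ucma encodes a small secreted protein of cartilage with many γ-carboxyglutamate residues (ENSMUSG00000026668, chromosome 2, 4976122 to 4985748). Its reads were 1631 in WT, 591 in Cart-miR-23clus KO, 639 in the miR-26a KO and 482 with the mimic, or 3631, 1448, 1562 and 1101 TPM. WT was alone at the top, the intervals of the 2 knockouts overlapped, and the mimic library was lowest. Relative to WT it stood at 0.399 (0.371 to 0.449) in Cart-miR-23clus KO and 0.430 (0.392 to 0.472) in miR-26a KO, and 0.705 (0.632 to 0.804) for the mimic library against miR-26a KO. Over the 4 libraries, the gene whose pattern was most like that of Matn1 was Ucma, at a distance of 0.685 between mean-centred log2 TPM values, and no gene was within 0.3 of Matn1 or of Ucma among the 2066 genes with at least 100 reads in every library. By the same measure the nearest gene to Ucma was Mgp, the gene of another γ-carboxylated protein of cartilage, at 0.499.

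Matn3 and Matn4, the other matrilins examined, had a different order of libraries from Matn1. Matn3 encodes matrilin-3 (ENSMUSG00000020583, chromosome 12, 8947929 to 8972028), and had 115, 144, 92 and 76 reads in WT, Cart-miR-23clus KO, the miR-26a KO and its mimic library, or 36.5, 50.4, 32.1 and 24.8 TPM. Neighbours in the order of the 4 libraries all overlapped in their intervals. Its TPM ratio to WT was 1.38 (1.10 to 1.82) in Cart-miR-23clus KO and 0.879 (0.661 to 1.17) in miR-26a KO, and the mimic library was at 0.772 (0.569 to 1.07) times miR-26a KO. For the last 2 ratios a difference was not detectable at this depth.

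Matn4 encodes matrilin-4 (ENSMUSG00000016995, chromosome 2, 164389393 to 164405160), and went opposite ways in the 2 knockouts. It had 189 reads in WT, 285 in Cart-miR-23clus KO, 100 in the miR-26a KO and 104 with the mimic, or 83.0, 137.8, 48.2 and 46.9 TPM. Cart-miR-23clus KO was highest, WT lay between, and the miR-26a -/- libraries were lowest and overlapped. The ratio to WT was 1.66 (1.41 to 2.05) in Cart-miR-23clus KO and 0.581 (0.452 to 0.745) in miR-26a KO. Set directly against miR-26a KO, Cart-miR-23clus KO was at 2.86 (2.32 to 3.71), a ratio above 2 that 2.3% of 7433 genes reached. Per 100 reads of Matn1, Matn4 had 7.58 reads in WT, 31.3 in Cart-miR-23clus KO, 12.6 in the miR-26a KO and 25.1 with the mimic. In the miR-26a -/- libraries this figure was above WT although Matn4 itself was lower, because Matn1 was lower still. Its nearest gene in pattern was Col9a2, a chain of the type IX collagen on the surface of cartilage fibrils, at a distance of 0.239.

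Comp encodes cartilage oligomeric matrix protein, of the thrombospondin family, which binds collagen fibrils (ENSMUSG00000031849, chromosome 8, 70373558 to 70382066). It had 427 reads in WT, 658 in Cart-miR-23clus KO, 461 in the miR-26a KO and 518 with the mimic, or 169.2, 287, 200.6 and 210.6 TPM. Cart-miR-23clus KO was alone at the top. Relative to WT it stood at 1.70 (1.54 to 1.97) in Cart-miR-23clus KO and 1.19 (1.04 to 1.36) in miR-26a KO, and 1.05 (0.935 to 1.21) for the mimic library against miR-26a KO. Comp has a 3′ UTR of 134 bases without a match.

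**Figure D2:**
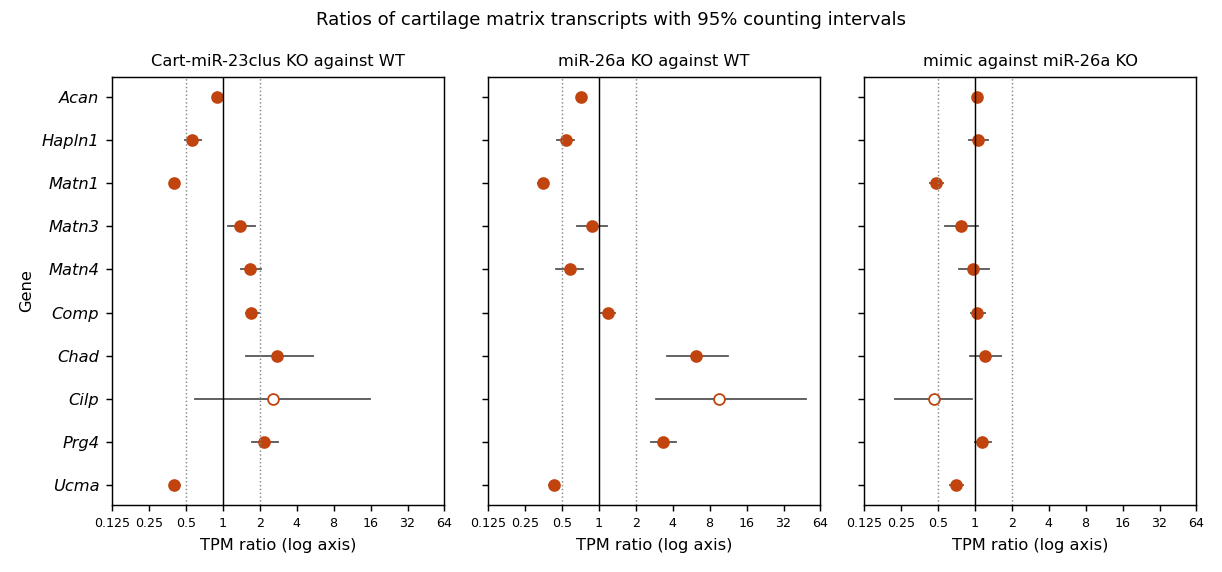
TPM ratios of the 10 genes on a log axis in the 3 comparisons, with exact 95% counting intervals as lines, a solid line at 1 and dotted lines at 0.5 and 2; open circles mark Cilp, which had too few reads to be counted. Prg4 and Chad lie above 2 and Matn1 and Ucma below 0.5 in both knockouts against WT, and Matn1 alone of the 9 genes counted lies below 0.5 for the mimic against the miR-26a KO.

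Prg4 and Chad were the members above 2-fold in both knockouts. Prg4 encodes lubricin, the lubricant of the articular surface (ENSMUSG00000006014, chromosome 1, 150449412 to 150466165, minus strand). It had 101 reads in WT, 198 in Cart-miR-23clus KO, 309 in the miR-26a KO and 381 with the mimic, or 65.3, 141.0, 219.5 and 252.8 TPM. WT was lowest, Cart-miR-23clus KO lay between, and the intervals of the miR-26a -/- libraries overlapped above both. Its TPM ratio to WT was 2.16 (1.73 to 2.84) in Cart-miR-23clus KO and 3.36 (2.68 to 4.25) in miR-26a KO, and the mimic library was at 1.15 (1.00 to 1.36) times miR-26a KO. Prg4 is on the study's own list of genes with a higher mRNA and protein level in Cart-miR-23clus KO, a list made on these samples, so that first ratio is not independent evidence. Its UTR holds the miR-23 match shown above, whose part in these levels was not tested. Set directly against the miR-26a KO, Cart-miR-23clus KO was at 0.642 (0.547 to 0.788). The 3′ end of Prg4 overlaps that of Tpr on the opposite strand, a widely expressed nuclear pore gene with 221, 266, 271 and 274 reads in the same order. The strand setting of the counting is not given in the sources used here, so reads of the overlap cannot be told apart between the 2 genes.

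Per 100 reads of Matn1, Prg4 had 4.05 reads in WT, 21.7 in Cart-miR-23clus KO, 38.9 in the miR-26a KO and 92.0 with the mimic, a ratio within each library that needs no scaling between libraries. It sets a gene that was higher than WT over one that was lower and is made from the same reads, so it adds no separate evidence. The order of the 4 libraries was opposite for these 2 genes. The genes nearest to Prg4 in pattern included S100a6, a calcium-binding protein, and Sod3, an extracellular superoxide dismutase, at distances of 0.465 and 0.470, and none was within 0.3. Acan, by contrast, had 197 genes within 0.3, the nearest being Foxc1, Ccn1 and Col11a2 at 0.051, 0.051 and 0.056. The distance is not scaled by how widely a gene ranges, so a gene with a narrow range has more near genes. The highest library was 1.4 times the lowest for Acan and 3.87 times for Prg4, so these counts do not show how common a pattern is.

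Chad encodes chondroadherin, a leucine-rich repeat protein that binds collagen and integrins (ENSMUSG00000039084, chromosome 11, 94565047 to 94569127). It had 16 reads in WT, 40 in Cart-miR-23clus KO, 90 in the miR-26a KO and 116 with the mimic, or 9.12, 25.1, 56.3 and 67.8 TPM, in the same order of libraries as Prg4. The ratio to WT was 2.75 (1.54 to 5.39) in Cart-miR-23clus KO and 6.18 (3.61 to 11.3) in miR-26a KO, and the mimic library was at 1.20 (0.917 to 1.62) times miR-26a KO. Its 16 reads in WT leave these folds wide.

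Cilp encodes cartilage intermediate layer protein (ENSMUSG00000042254, chromosome 9, 65265180 to 65280605). It had 3 reads in WT, 7 in Cart-miR-23clus KO, 26 in the miR-26a KO and 13 with the mimic, or 0.691, 1.78, 6.58 and 3.07 TPM. The ratio of miR-26a KO to WT was 9.52 (2.92 to 49.2), and that of Cart-miR-23clus KO to WT was not distinguishable from 1 at this depth (0.600 to 15.8). Its mean over the 4 libraries was also under 20 reads, so Cilp is left out of the counts that follow.

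Of the 9 members counted, 2 (Prg4 and Chad) were above 2 in Cart-miR-23clus KO against WT, where 3.11% of all 7531 genes were, and 2 (Matn1 and Ucma) were below 0.5, where 2.78% of all genes were. Their median log2 ratio was 0.46, beside −0.02 for all genes, and 0.15 when either Chad or Prg4 was left out. In miR-26a KO against WT the members above 2 and below 0.5 were those already named, 2 each way, with 2.6% and 1.77% of 7615 genes, and the median was −0.49 beside 0.03. Chad passed the read minimum through the libraries where it was high: with at least 20 reads required in each library, it dropped out and 1 of 8 members, Prg4, was above 2 in each knockout, beside 2.06% of all genes in Cart-miR-23clus KO and 1.59% in the miR-26a KO. These comparisons share the WT library, so a read count of WT that is high or low by chance moves both. For the mimic against the miR-26a KO no member was above 2 (0.649% of 7547 genes) and 1, Matn1, was below 0.5 (0.517%), with a median of 0.05 beside −0.01. The counting interval did not include 1 for 9, 8 and 4 of the 9 members in the 3 comparisons. The share of all genes with such an interval was not computed, so these counts show nothing particular to the members. In the last comparison the lower limits of Acan and Prg4, 1.001 and 1.00, lie closer to 1 than the factor of 0.989 between TPM and library totals. With other libraries as the base, Cart-miR-23clus KO had 1 member above 2 (2.3% of all genes) and 1 below 0.5 (2.29%) relative to the miR-26a KO, and 3 above 2 (1.83%) and 1 below 0.5 (2.63%) relative to the mimic library, while the mimic library had 2 above 2 (2.52%) and 2 below 0.5 (1.48%) relative to WT.

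**Figure D3:**
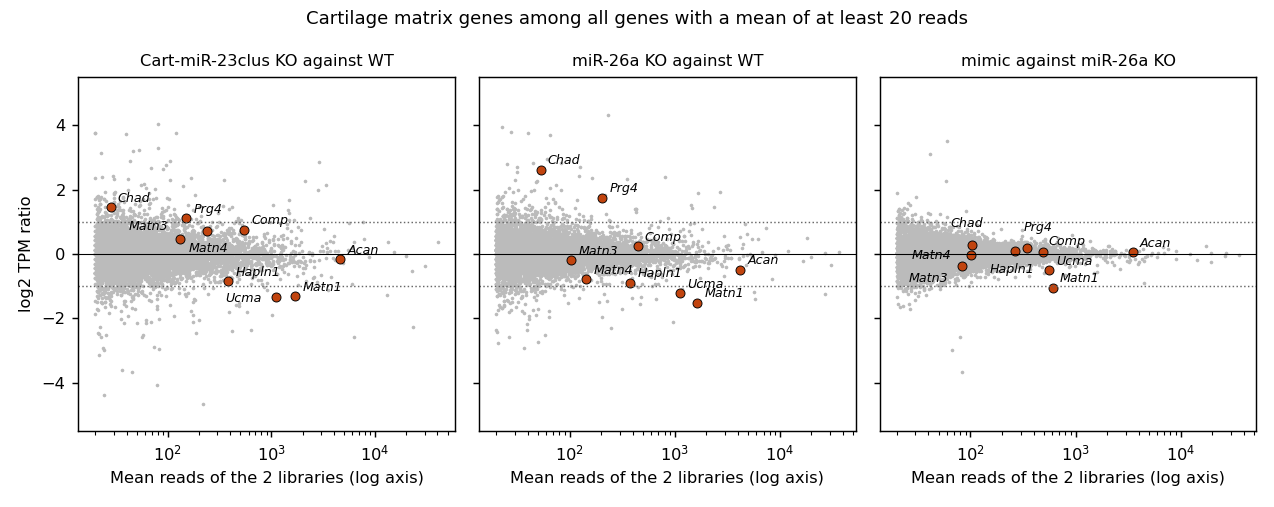
log2 TPM ratio against the mean reads of the 2 libraries (log axis) for every gene with a mean of at least 20 reads and reads in both libraries (grey points), with the cartilage matrix genes in colour and dotted lines at 2-fold. Matn1 and Ucma lie near the lower edge of the genes of similar depth in the 2 comparisons with WT, and Matn1 lies below all genes of at least 100 mean reads in the comparison of the mimic with miR-26a KO.

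Among all genes with a mean of at least 20 reads, the highest of the 4 libraries exceeded the lowest by more than 2-fold in 12.7%, and in 6 of the 9 members, and by more than 5-fold in 0.992%, and in 2 members, Matn1 and Chad, of which Chad reached the read minimum through the libraries where it was high. WT was the highest library for 4 members (Acan, Hapln1, Matn1 and Ucma; 26.5% of all genes) and the lowest for 3 (Comp, Prg4 and Chad; 29.1%). The make-up of the members' reads shifted accordingly. Acan took 48.1% of them in WT, 57.2% in Cart-miR-23clus KO, 54.5% in the miR-26a KO and 60.6% with the mimic. Matn1 took 23.6%, 12.6%, 13.1% and 6.84%, and Prg4 took 0.956%, 2.74%, 5.10% and 6.30%.

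**Figure D4:**
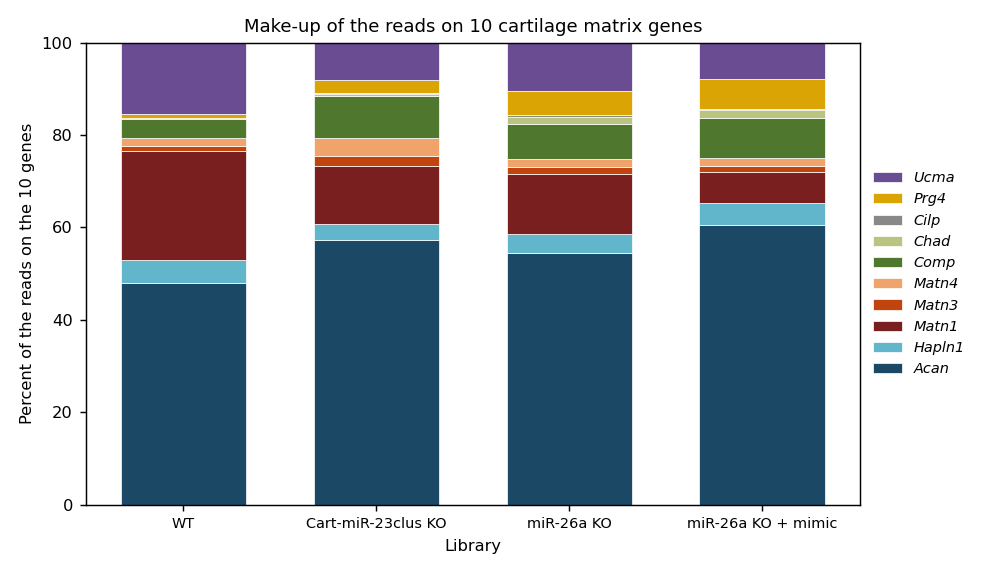
Percent of the reads on the 10 genes that each gene took in the 4 libraries, as stacked bars from 0 to 100. The part of Acan grew from 48.1% in WT to 60.6% in the mimic library, and that of Matn1 was 23.6% in WT and 6.84% in the mimic library.

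Genes related to the members by family were covered by a list of 14, of which 8, 8 and 7 had enough reads in the 3 comparisons. Cilp2, the paralogue of Cilp, had 57, 134, 267 and 237 reads in WT, Cart-miR-23clus KO, the miR-26a KO and its mimic library. Its ratio to WT was 2.59 (1.93 to 3.68) in Cart-miR-23clus KO and 5.14 (3.86 to 6.98) in miR-26a KO. Thbs4, a thrombospondin of the same family as Comp that is abundant in tendon, had 24, 38, 435 and 291 reads. It stood at 19.9 (13.2 to 31.4) times WT in miR-26a KO and at 0.625 (0.543 to 0.735) times miR-26a KO in the mimic library. In Cart-miR-23clus KO it stood at 1.74 (1.04 to 3.11) times WT, beside 1.70 for Comp. Vit, the gene of vitrin, was the single relative with enough reads that was below 0.5, at 0.462 (0.287 to 0.758) in Cart-miR-23clus KO. Thbs1, with the most reads of this list, was at 0.610 (0.595 to 0.655) in Cart-miR-23clus KO and 0.957 (0.919 to 0.999) in miR-26a KO. The median log2 ratio of the list was −0.08, 0.21 and −0.23 in the 3 comparisons.

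Among 16 other non-collagen proteins of cartilage, 13 were counted each time. Cytl1, a small secreted protein of cartilage, was above 2 in both knockouts, with 36, 98, 213 and 275 reads and ratios to WT of 3.00 (2.07 to 4.63) and 6.50 (4.55 to 9.54), in the order of libraries seen for Prg4 and Chad. Mgp, an inhibitor of mineral deposition in cartilage, was at 0.531 (0.523 to 0.565) in Cart-miR-23clus KO and at 0.442 (0.424 to 0.461) in miR-26a KO, the single one of the 13 counted below 0.5. In Cart-miR-23clus KO 11 of the 13 were lower than WT, with a median log2 ratio of −0.30, and in miR-26a KO 6 of the 13 were, with a median of 0.00. The medians over all genes were −0.02 and 0.03. For the mimic against the miR-26a KO none was past 2-fold and the median was 0.05 (log2).

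The hyaluronan list held 10 genes, of which 4 or 5 had enough reads. Cd44, the receptor of hyaluronan, was at 0.953 (0.674 to 1.41) in Cart-miR-23clus KO and at 2.02 (1.49 to 2.76) in miR-26a KO, and no other of the genes with enough reads was past 2-fold. Of 9 genes for proteases that cleave aggrecan or other matrix proteins and their inhibitor, Htra1 was at 0.359 (0.284 to 0.470) and Adamts1 at 0.493 (0.317 to 0.787) in Cart-miR-23clus KO. Adamts5, the main aggrecanase of mouse cartilage, had 63, 34, 95 and 93 reads, at 0.594 (0.388 to 0.937) and 1.66 (1.19 to 2.32) times WT in the 2 knockouts. The study's own PCR, on replicate cultures with floxed controls, found no significant difference in Adamts5 or Acan for Cart-miR-23clus KO. Staining of knee cartilage for the ADAMTS5 protein was unchanged there too, so the ratio of 0.594 rests on 1 library each. Of the 7 counted in Cart-miR-23clus KO no other was past 2-fold, and of the 6 counted each time none was past 2-fold in miR-26a KO against WT or for the mimic against the miR-26a KO.

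Sox9, the transcription factor that drives Acan and other cartilage genes, was nearly level, with 499.5, 468.4, 496.5 and 462.9 TPM. Its ratio to WT was 0.938 (0.901 to 1.02) in Cart-miR-23clus KO and 0.994 (0.935 to 1.06) in miR-26a KO. Of the 8 transcription factors of chondrocytes counted, Runx3 was below 0.5 in Cart-miR-23clus KO, at 0.414 (0.296 to 0.597), and Creb5 was above 2 in miR-26a KO, at 2.10 (1.37 to 3.28). Creb5, which is known to sustain Prg4 in superficial chondrocytes, was at 1.81 (1.19 to 2.93) in Cart-miR-23clus KO.

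The label of articular chondrocytes was checked against markers. All 9 chondrocyte markers had reads in every library, and Col2a1 stood between 5452 and 7062 TPM. Their summed level was 34935 CPM in WT and between 26552 and 27231 in the other 3 libraries, and 7, 9 and 5 of the 9 were lower in the 3 comparisons. The median log2 ratio of all genes in these comparisons was −0.02, 0.03 and −0.01. Markers of other cells were present and differed between the libraries. The 10 osteoblast markers summed to 34325 CPM in WT, 6920 in Cart-miR-23clus KO, 15862 in the miR-26a KO and 18451 with the mimic, with Col1a1 at 6328, 1311, 2690 and 3194 TPM. All 7 of those counted in Cart-miR-23clus KO and all 8 counted in miR-26a KO were lower than in WT. The 7 hypertrophic chondrocyte markers, which share Ibsp and Alpl with that list, summed to 10228, 3826, 7323 and 7995. Not every gene of the second list was lower. In Cart-miR-23clus KO, Spp1 stood at 2.09 and Col10a1 at 1.55 times WT, and Mmp13 stood at 1.72 times WT in the miR-26a KO. Both sums were highest in WT, as were Acan, Hapln1, Matn1 and Ucma. The mimic library stood above the miR-26a KO for both sums and below it for Matn1 and Ucma. Acan was at 1.04, with a lower limit of 1.001, and Hapln1, whose interval included 1, at 1.06. The part of these cells in the members' levels was not tested, and in bulk samples fewer cells of a type and less RNA per cell cannot be told apart.

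Macrophage markers (12 genes) summed to 810.9, 947.3, 279.6 and 520.3 CPM in WT, Cart-miR-23clus KO, the miR-26a KO and its mimic library, with Lyz2 and Csf1r detected in each. Adipocyte markers (7 genes) summed to 293.5, 724.3, 162.8 and 218.0, where Lpl was lower and Fabp4 and Pparg were higher in the miR-26a KO than in WT, and smooth muscle markers (6 genes) to 219.8, 481.1, 221.9 and 290.5. Fibroblast and synovial markers (10 genes), which include Col1a1, summed to 39653, 11654, 22937 and 24048. Of the 5 counted, 3 and 4 were lower than WT in the 2 knockouts, with median log2 ratios of −0.77 and −0.22. The sums of the tendon markers (6 genes), which include Thbs4, were 2796, 3098, 3836 and 3597. Endothelial markers (6 genes) stood at 2.92 CPM or less, with 4 or 5 of them at 0 in each library and Cdh5 and Tek at 0 in all 4. Cidec (adipocyte) and Myh11 and Rgs5 (smooth muscle) were also at 0 in all 4 libraries, Dmp1 and Ifitm5 (osteoblast) at 0 in Cart-miR-23clus KO, and Ptprc (macrophage) at 0 in the miR-26a KO. The tendon sum was lowest in WT, as Prg4 and Chad were, and higher in both miR-26a -/- libraries than in Cart-miR-23clus KO. Its 3 counted genes, Scx, Fmod and Thbs4, were higher than WT in both knockouts, with median log2 ratios of 0.75 and 0.94. Their part in the members' levels was not tested.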

How the data were processed

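QuantSeq 3′ mRNA libraries (FWD, oligo-dT primed) were read as single-end reads of 75 bases and mapped by the authors to mm10 (GRCm38.p6 in the submitters' processing notes). The aligner, counter, annotation and strand setting are not given in the sources used here. The estimated count deposited by the authors is a whole number of reads per gene for 3 libraries, without normalization; its footer rows (totals, alignment rate) were left out. The deposited TPM, made by the authors, divides reads by gene length and scales each library, for 4 libraries and 55141 genes. Reads of the mimic library were recovered from its TPM and the gene lengths implied by the other libraries: 14250 of 14250 values of up to 1000 reads were whole within 0.05 read, and 588 genes were not recovered.

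The members, lists and comparisons were chosen with earlier results of these data known. Ratios are of deposited TPM. Their 95% intervals were computed by the exact Clopper-Pearson method from the reads, offset by library totals, and those of levels by the exact Poisson method. They cover counting error only, reads without molecular identifiers are not independent molecules, and they compare libraries, not conditions. On the scale of library totals the TPM ratio is 0.977, 0.999 and 0.989 times the read ratio in the 3 comparisons. With 1 library per group no test was run. Named genes are all members, the 3 nearest genes in pattern to Acan and Prg4, and, of the other lists, up to 3 genes with most reads and those past 2-fold. Not every gene so selected is named. The nearest genes to Matn1, Ucma and Matn4, and Adamts5, were added after their values were seen. Positions and 3′ UTRs (at least 50 bases) came from GENCODE on GRCm38 by identifier. Scaling by CPM, edgeR's TMM or DESeq2's size factors, other filters, added TPM, other comparison libraries, 99% intervals and 8-base matches were the alternatives. Ratios on library totals and their intervals were checked on simulated Poisson reads, which does not cover the TPM ratios or reads that are not independent molecules. Software was R 4.3.3 with DESeq2 1.42.0 and edgeR 4.0.16, and Python 3.11.15 with scipy 1.17.1, pandas 2.3.3, matplotlib 3.10.9 and numpy 2.4.6.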

Additional observations from a re-analysis of the deposited data

How the results depend on the processing

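No paired analysis was possible because there is 1 library per condition, and for the same reason no library could be left out. The ratios of the 9 members counted stayed inside their 95% intervals with CPM, TMM, DESeq2 size factors, or 0.5 or 1 TPM added, and the median of all genes moved by less than 0.1 (log2) between these settings. The intervals are built on the CPM ratio, which therefore lies inside them by construction. The other settings alter the ratios little, so they are a weak check. Other choices moved the following. The members above 2 in Cart-miR-23clus KO against WT and in miR-26a KO against WT fell from 2 to 1 when each library needed at least 20 reads or their mean at least 100, settings that drop Chad, and without Prg4. The median log2 ratio of the members in miR-26a KO against WT was −0.34 with no read minimum and −0.63 under each of those 3 settings, where that in Cart-miR-23clus KO against WT was 0.15 in place of 0.46. With no read minimum 2 members, with Cilp, were below 0.5 for the mimic against the miR-26a KO, and with 99% intervals 2 rather than 4 members had an interval off 1 there.

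With miR-26a KO in place of WT, Cart-miR-23clus KO had 1 member above 2 (Matn4, at 2.86) and 1 below 0.5 (Chad), and the ratios of Matn1, Prg4 and Chad reversed to 1.15, 0.642 and 0.446, while Ucma was at 0.927 in place of 0.399, Hapln1 at 1.04 in place of 0.561 and Acan at 1.26 in place of 0.896. With the mimic library in place of WT, 1 member (Chad) was below 0.5, and Matn1, Prg4, Ucma and Chad reversed to 2.36, 0.558, 1.32 and 0.370, with Acan at 1.21, Hapln1 at 0.986, Matn3 at 2.03 and Matn4 at 2.94. With WT in place of miR-26a KO, the mimic library had 2 members above 2, 2 below 0.5 and a median log2 ratio of −0.56.

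The share of all genes past 2-fold moved with the read minimum. With none it was 10.3% above 2 and 8.02% below 0.5 in Cart-miR-23clus KO against WT, 8.72% and 7.51% in miR-26a KO against WT, and 5.2% and 7.31% for the mimic against the miR-26a KO, and with at least 20 reads in each it was 2.06%, 1.47%, 1.59%, 0.811%, 0.197% and 0.183%. With a mean of at least 100 reads it was 2.19%, 1.58%, 1.37%, 0.848%, 0% and 0.0404% in the same order, and 1 TPM added gave 0.411% and 0.318% in the last comparison. CPM in place of TPM left 4, 2, 2 and 3 of the 10 members at the same rank of level in WT, Cart-miR-23clus KO, the miR-26a KO and its mimic library. The smooth muscle markers had a median log2 ratio of 1.03, from 1 gene, in Cart-miR-23clus KO against WT with at least 20 reads in each, beside 2.40 from 2 genes. With 8-base matches 1 member had a match for miR-23, 1 for miR-27, 0 for miR-24 and 1 for miR-26a. The shares over 20290 mouse 3′ UTRs were 6.03%, 5.63%, 6.84% and 4.05% in the same order.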
